A study of Mus musculus with 4 samples.

Results

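The genes of nuclear export and of the Ran cycle were examined in B16F10 cells, a mouse melanoma line, with and without knockdown of lamin A/C. They were taken by gene symbol and are 10 of the 24421 symbols in the count matrix, namely the exportin genes Xpo1, Xpo4, Xpo5, Xpo6, Xpo7, Xpot and Cse1l, the GTPase gene Ran, and its regulators Rangap1 and Rcc1. Cells of 2 libraries (shControl 1 and 2) carried the empty control vector, and cells of 2 libraries (shLmna 1 and 2) carried a short hairpin RNA (shRNA) against exon 8 of Lmna. Both vectors were introduced by lentivirus, and both lines were selected with 2.5 µg/ml puromycin and grown in the same medium. The control vector holds no hairpin, so any effect of carrying one cannot be told apart from that of the knockdown. The transduced cells were expanded after selection with no cloning step described, and separate transductions are not stated for the libraries of a group. The p-values therefore measure the spread between libraries. Transcripts were counted at their 3′ ends by bulk MARS-seq. In such bulk counts, fewer cells that express a gene and less RNA per cell cannot be told apart.

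Exportins are receptors that carry cargo out of the nucleus through the nuclear pores. They bind cargo together with Ran in its GTP-bound form. RCC1, which sits on chromatin, loads Ran with GTP inside the nucleus, and RanGAP1, on the cytoplasmic face of the pore, makes Ran hydrolyze it, so that the cargo is released outside. Exportin-1 (Xpo1, also called CRM1) exports proteins with a leucine-rich signal, exportin-5 (Xpo5) exports precursors of microRNAs, exportin-t (Xpot) exports transfer RNAs, exportin-6 (Xpo6) exports actin with profilin, and exportin-4 (Xpo4) exports the translation factor eIF5A. CSE1L, also called CAS, returns importin alpha to the cytoplasm after import.

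Totals were 2494880 to 3808843 counts per library, and 9150 genes passed the filter on low counts and entered the quasi-likelihood test of edgeR. Levels are given in CPM, the count per gene scaled to a fixed library total with trimmed-mean (TMM) factors, and differences as log2 fold changes of shLmna against shControl, so that a negative value is lower in shLmna. The hairpin target itself was lower in shLmna, with 2826 and 2684 Lmna counts in the control libraries against 331 and 480 (log2 fold change -2.61, SE 0.142, edgeR adjusted p 7.93e-06). Of 7 melanocytic markers, 6 had at least 10 counts in every library, with a summed level of 20117 to 24602 CPM. The summed level stayed under 5.27 CPM for 5 fibroblast markers, under 1.34 CPM for 5 endothelial markers and under 0.396 CPM for 5 leukocyte markers. Of these 15 genes, Dcn, Lum, Cdh5, Kdr, Emcn, Ptprc, Cd3e, Itgam and Cd79a were at 0 in every library.

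MARS-seq primes at the poly(A) tail and counts reads near the 3′ ends of transcripts. Several members have more than 1 annotated end, and which was used in these cells was not tested. The last 30 bases of the transcript used here (GENCODE M21, GRCm38) are shown for the member that fell, the member that rose, the most abundant member and the exportin with the fewest counts in shLmna, and capitals mark the poly(A) signal AATAAA or ATTAAA where it is present.
Xpot, chr10:121587380-121587409, minus strand: taaaattctAATAAAataactttctaagaa
Cse1l, chr2:166946360-166946389, plus strand: tactaatttttaaatcatttaaactcagaa
Rangap1, chr15:81704253-81704282, minus strand: tcacaAATAAAcgtcatctgtgtagttgca
Xpo1, chr11:23297568-23297597, plus strand: aagataacagccttgatcttgataacagct
Either signal was found in this stretch for Xpot, Rangap1, Rcc1 and Xpo7, and it was found in 59% of 33363 RefSeq-linked transcripts. No match says only that these letters are not in the last 30 annotated bases.

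The counted levels of the 10 transcripts differed widely. Counts are taken from the last 1000 bases of a gene and the 100 bases after it, which puts all members on a window of about equal length. On this scale the order of levels in shControl was Rangap1, Rcc1, Cse1l, Xpo6, Ran, Xpo5, Xpot, Xpo4, Xpo1 and Xpo7. Rangap1 stood at 819 ± 27.0 CPM (SD, n = 2) and Xpot at 21.2 ± 0.660 CPM. Neighbors in this order did not overlap between libraries, except Xpo4 and Xpo1. In shLmna the first 6 places were unchanged, and Xpot moved from place 7 to place 8, behind Xpo4. The last 4 places there rest on 1 to 6 counts per library. Reads from ends outside the window are not counted. Annotated ends span 12306 bases in Xpo7, 4750 in Xpo4, 2239 in Xpot and 2016 in Xpo1. The order is therefore one of counts, and low places need not mean little RNA.

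**Figure D1:**
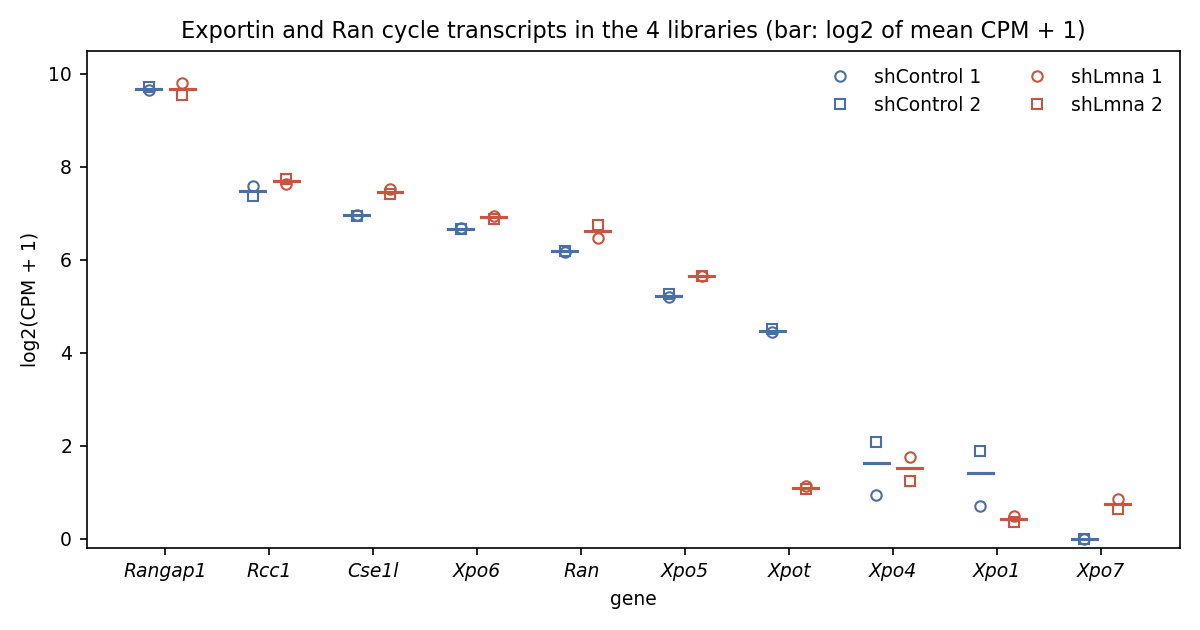
Level of each of the 10 transcripts in the 4 libraries, as log2(CPM + 1) on the vertical axis, with genes ordered by their mean in shControl. Circles are replicate 1, squares replicate 2, and bars the log2 of the group mean plus 1; Xpot sits at 21.2 CPM on average in shControl and at 1.14 CPM in shLmna.

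Of the 7 members that passed the filter, 1 was lower and 1 was higher in shLmna with an edgeR adjusted p under 0.05. Among all tested genes 9.74% were lower and 5.48% higher by the same rule. Xpot fell and Cse1l rose, whereas Xpo5, Xpo6, Ran, Rangap1 and Rcc1 did not pass the adjusted test. The median log2 fold change of the 7 was 0.25, against -0.00107 for all tested genes. An unadjusted p under 0.05 was found for 4 of the 7, with Ran and Xpo5 added, and for 30.1% of all tested genes. In 6 of the 7 the libraries of the groups did not overlap, 5 being higher and 1 lower in shLmna. That held for 60.1% of all tested genes, with 29.5% higher and 30.6% lower. By the limits of the study, which add a log2 fold change over 1 in size and a mean normalized count over 5, Xpot alone was called, where 5.88% of all tested genes were called lower and 1.76% higher.

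Xpot showed the largest difference among the members. Both control libraries held many counts of it (67 and 81), and the knockdown libraries held 3 and 4. Its level was 20.8 and 21.7 CPM in shControl 1 and 2, and 1.19 and 1.09 CPM in shLmna 1 and 2. Both shLmna libraries lay far below both shControl libraries, and replicates within each group were close. The log2 fold change was -4.19 (SE 0.359, 95% interval -4.99 to -3.38, edgeR adjusted p 5.96e-05), a level 18.2-fold lower, and it ranked 74 by p among the 9150 tested genes. Pooled over libraries, 148 counts in shControl against 7 in shLmna gave a ratio of 18.8, with an exact 95% interval of 8.91 to 47.6 for counting error alone. The remaining signal in shLmna was close to the floor of 3 counts per library, which equals 0.803 to 1.19 CPM over the 4 libraries. In the authors' normalized counts the same gene read 64.1 and 68.0 in shControl 1 and 2, and 2.58 and 3.52 in shLmna 1 and 2.

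The Xpot gene (ENSMUSG00000034667.8) lies on the minus strand of chromosome 10, from 121587380 to 121626332 (GRCm38), and the transcript used here has 25 exons and 6005 bases. For each member, the last 1000 bases of the transcript used here stand for the counted window. The 100 bases after them were not checked. In Xpo1 that transcript ends at 23297597, inside the annotated gene, which ends at 23298249. In Xpo7, on the minus strand, it ends at 70664818, and the gene at 70654246. Whether the window used for these members is the one that was counted was not tested. In Xpot this window falls within the last exon and overlaps no other annotated gene on either strand. It shares 0% of its 31-base stretches with transcripts of other genes. A second annotated end of a protein-coding Xpot transcript lies 2239 bases from the end of the transcript used here, outside the counted 1000 bases of the longer form. GC content of the window was 39.8%, and 19.3% of tested genes with a GC value lay at or below it. Among the 610 tested genes with 38% to 40% GC, 67 were lower and 61 higher with an adjusted p under 0.05. Below 36% GC the share of lower genes was 38.9% of 640 genes. With a correction for GC content the log2 fold change of Xpot was -4.22 (edgeR adjusted p 6.85e-05). That correction removes the smooth trend with GC over all genes. The median log2 fold change at 38% to 40% GC was 0.03, so the correction could move Xpot little. Whether base composition has a part in the fall was not tested.

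The 250 bases before the RefSeq start of Xpot (GRCm38.p6) are shown, as those of the member with the large fall, beside those of Ran. Capitals mark CACGTG, the E-box bound by Myc and Max among others, which reads the same on both strands. Among the members with a promoter entry, only Xpot and Ran hold it. Cse1l, the member that rose, has no promoter entry.
Xpot, chr10:121626333-121626582, minus strand: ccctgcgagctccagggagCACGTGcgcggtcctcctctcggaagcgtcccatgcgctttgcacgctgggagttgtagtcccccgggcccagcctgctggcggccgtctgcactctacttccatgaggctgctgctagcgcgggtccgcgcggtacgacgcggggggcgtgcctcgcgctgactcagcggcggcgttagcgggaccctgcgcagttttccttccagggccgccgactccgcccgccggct
Ran, chr5:129019906-129020155, plus strand: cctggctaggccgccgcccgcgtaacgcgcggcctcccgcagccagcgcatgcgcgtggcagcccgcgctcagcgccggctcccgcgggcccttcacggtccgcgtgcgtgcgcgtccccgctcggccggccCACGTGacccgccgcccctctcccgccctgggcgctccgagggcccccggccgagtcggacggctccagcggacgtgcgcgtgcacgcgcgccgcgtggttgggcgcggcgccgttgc
The match starts at position -231 in Xpot and -118 in Ran, counted from the base before the start as -1. It was found in 2 of the 7 members with a promoter entry (Xpo1, Xpo5, Xpo6, Xpot, Ran, Rangap1 and Rcc1) and in 6.02% of 32851 promoters of the same length. No binding was measured in these cells.

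Among all other tested genes, 5 were closest to Xpot in their pattern over the 4 libraries, by the distance between log2(CPM + 1) values centered on each gene's mean. They were Manea (distance 0.0838), Ubr3 (0.0874), Bivm (0.101), Lbr (0.148) and Zfand6 (0.169), against a median distance of 3.39 over 9143 genes. All 5 were lower in shLmna, which the choice by likeness to Xpot already required. Their log2 fold changes ran from -8.03 (Bivm) to -3.78 (Zfand6), on 0 to 10 counts per shLmna library. The 1 CPM added before the logarithm narrows the distances between genes so near the floor. Their GC content was 31.6% to 36.4%, below that of Xpot. Lbr encodes the lamin B receptor of the inner nuclear membrane. This likeness is over 4 libraries in 2 groups and is a description.

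Cse1l, the export receptor of importin alpha, was the member that rose. It stood at 124.2 and 122.4 CPM in shControl and 181.9 and 169.7 CPM in shLmna, from 401, 457, 460 and 623 counts. The groups did not overlap, and the shControl libraries were close to each other. The log2 fold change was 0.51 (SE 0.120, 95% interval 0.24 to 0.78, edgeR adjusted p 0.0193), a level 1.42-fold higher, and thus under the limit of 1 on log2 fold change that the study used for calls. Without shLmna 1 the adjusted p was 0.162 and without shLmna 2 it was 0.103, with log2 fold changes of 0.47 and 0.57. The gene lies on the plus strand of chromosome 2 (166906040 to 166946389), and its counted window spans 3 exons with 40.7% GC.

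The exportins Xpo5 and Xpo6 did not pass the adjusted test. Xpo5, the exporter of microRNA precursors, stood at 35.6 and 37.5 CPM in shControl and at 49.4 and 49.0 CPM in shLmna. Both shLmna libraries were above both shControl libraries, and the log2 fold change was 0.43 (SE 0.163, 95% interval 0.06 to 0.79, edgeR adjusted p 0.109). Xpo6, the exporter of actin, stood at 101.6 and 99.6 CPM in shControl and at 122.2 and 116.9 CPM in shLmna. The groups again did not overlap, and the log2 fold change was 0.25 (SE 0.124, 95% interval -0.03 to 0.52, edgeR adjusted p 0.214). With the batch-corrected values both passed, with log2 fold changes of 0.14 (limma adjusted p 0.0131) and 0.12 (limma adjusted p 0.0182). In that fit 1988 genes were lower and 1793 higher of 10417, against 891 and 501 of 9150 in the reported fit.

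Another 3 exportins were below the filter on low counts. Xpo1, the main exporter of proteins, had 2 and 10 counts in the shControl libraries, against 1 count in each shLmna library. Pooled, this gave a ratio of shControl to shLmna of 5.34 with an exact 95% interval of 1.19 to 49.1, which covers counting error only, and the shControl libraries themselves stood at 0.619 and 2.68 CPM. With no filter on low counts the log2 fold change was -2.25 with an edgeR adjusted p of 0.226. Xpo1 thus did not pass the adjusted test, although its counting interval lay above 1. Protein-coding Xpo1 transcripts have 3 annotated ends over 2016 bases, and 1.13% of the 31-base stretches of its window occur in other genes. Xpo4 had 3 and 12 counts in the shControl libraries, against 6 and 5 in those of shLmna, and its groups overlapped, with a ratio of 1.21 and an exact interval of 0.521 to 2.92. Xpo7 had 0 counts in both shControl libraries, which allows up to 0.929 and 0.803 CPM there, and 2 counts in each shLmna library, so that both groups were at or under the floor. Annotated Xpo7 transcripts end at 4 places over 12306 bases. Whether the counted windows missed ends used in these cells was not tested.

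**Figure D2:**
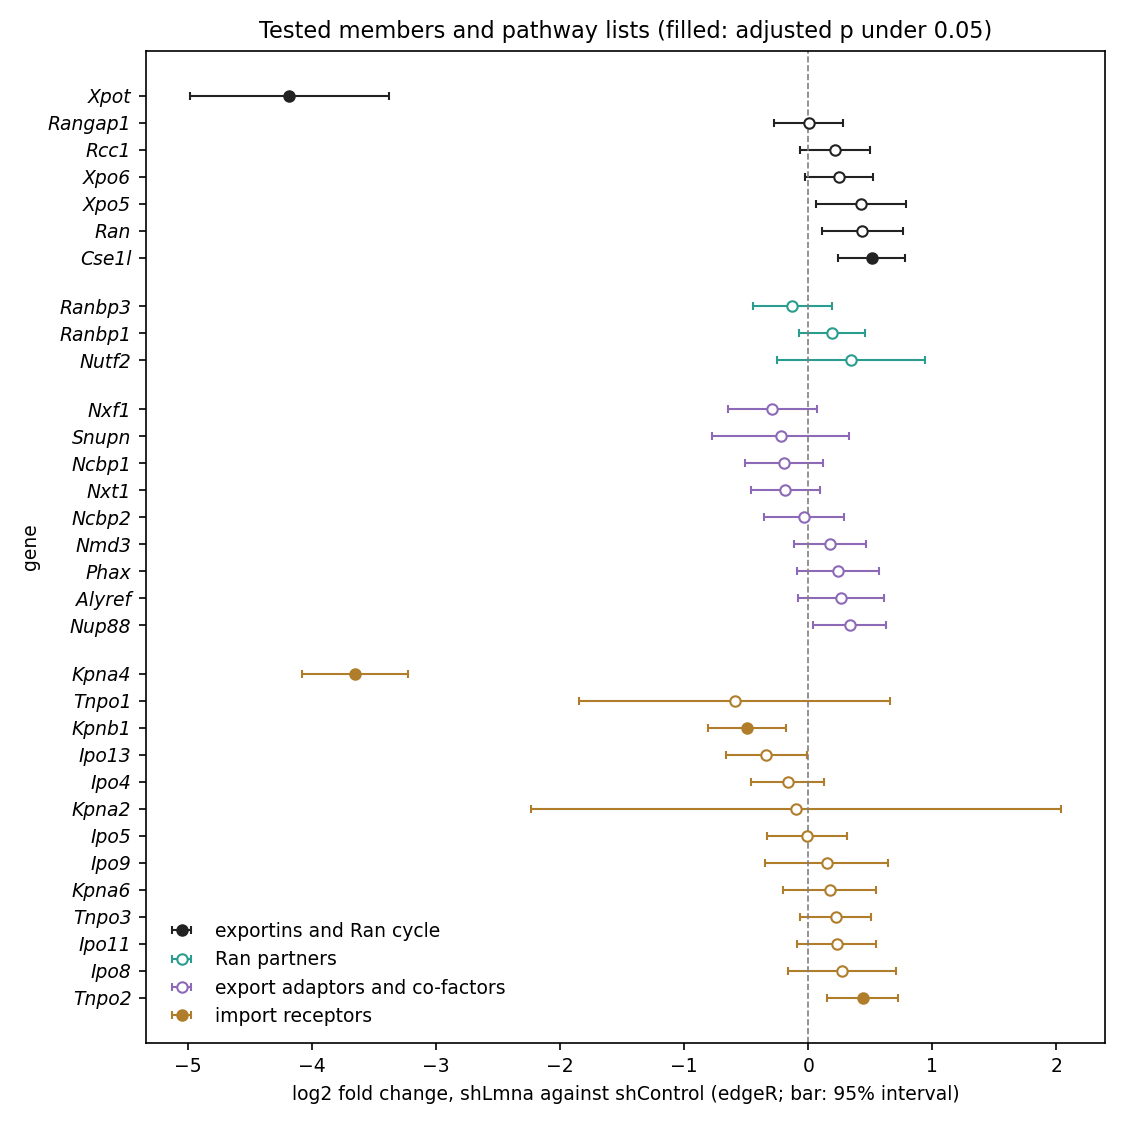
Log2 fold change of shLmna against shControl with its 95% interval for the 7 tested members and for the tested genes of 3 related lists, with genes on the vertical axis. Filled points have an edgeR adjusted p under 0.05, and Xpot (-4.19) and Kpna4 (-3.66) lie apart from the rest.

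The Ran cycle genes did not pass the adjusted test in either direction. Ran itself stood at 71.2 and 72.3 CPM in shControl and at 87.0 and 106.5 CPM in shLmna. Both shLmna libraries were above both shControl libraries, although the shLmna libraries differed from each other more than the shControl libraries did. The log2 fold change was 0.44 (SE 0.146, 95% interval 0.11 to 0.76, edgeR adjusted p 0.0758). It passed with no filter on low counts (edgeR adjusted p 0.0389) and with the batch-corrected values (limma adjusted p 0.0170), and had an adjusted p of 0.307 with DESeq2. With no filter 1292 genes were lower and 750 higher of 13616, and with the batch-corrected values 1988 and 1793 of 10417. The window of Ran on chromosome 5 (GC 41.6%) shared 0% of its 31-base stretches with other annotated transcripts, including those of Rasl2-9, a related gene.

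Rcc1, the exchange factor of Ran, stood at 190.5 and 163.9 CPM in shControl and at 197.8 and 213.1 CPM in shLmna. The groups did not overlap, but the lower shLmna library was close to the higher shControl library, and the log2 fold change was 0.22 (SE 0.128, 95% interval -0.07 to 0.50, edgeR adjusted p 0.295). Rangap1, which activates the GTPase of Ran, stood at 800.4 and 838.5 CPM in shControl and at 895.4 and 747.1 CPM in shLmna. Its groups overlapped, with 1 shLmna library above and 1 below both shControl libraries. The log2 fold change was 0.00246 (SE 0.125, 95% interval -0.28 to 0.28, edgeR adjusted p 0.992), so the interval leaves room for a change of up to 1.22-fold either way. As many as 6.80% of the 31-base stretches of its window occur in transcripts of other genes.

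The fall of Xpot had the same direction and passed the adjusted test under all 11 alternatives. Its log2 fold change ranged from -4.24 to -4.06 under 10 of them and was -0.59 in the authors' batch-corrected log2 values, where Xpot read 7.95 in each shControl library, and 7.36 and 7.37 in shLmna 1 and 2. The lowest value in that table is 7.01, and Xpo1, with 1 to 10 counts, read 7.17 to 7.34 there. Cse1l passed under 9 of 11 alternatives, Ran under 3, and Xpo5 and Xpo6 under 1 each. Rcc1 and Rangap1 passed under none, and the sign of Rangap1 differed under 3 of them.

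**Figure D3:**
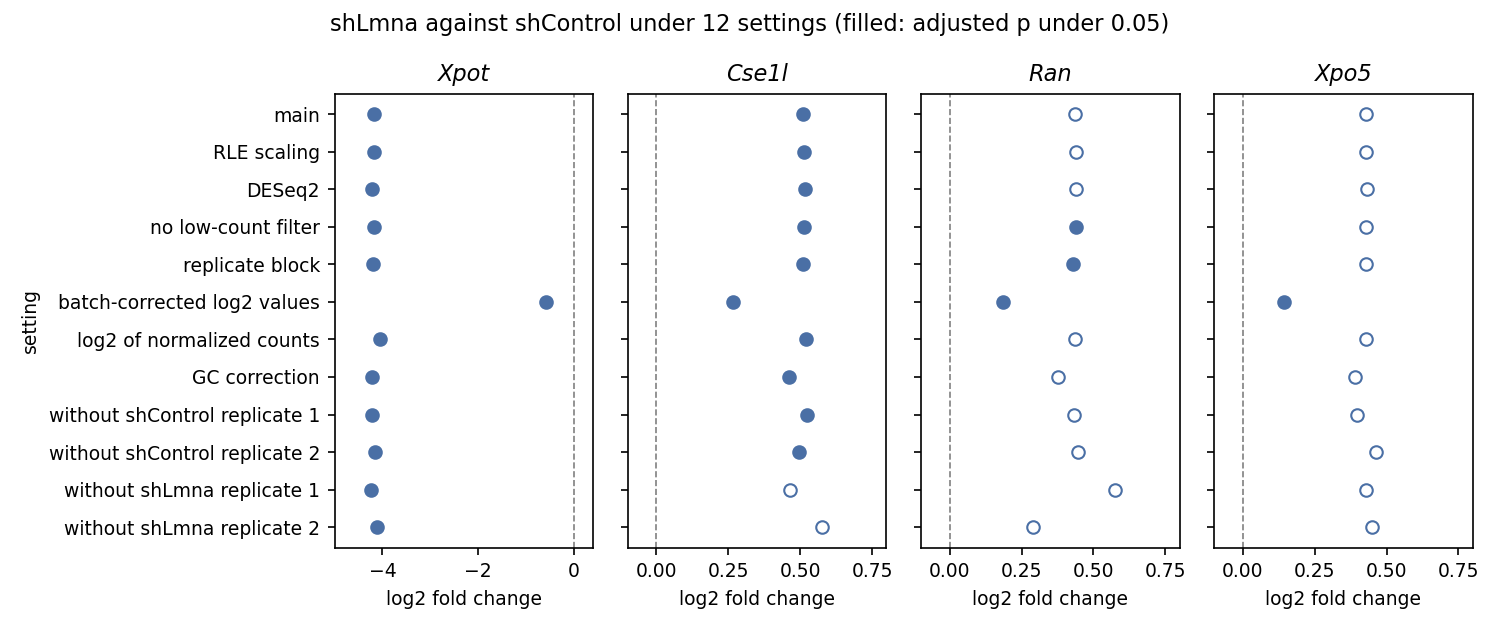
Log2 fold change of shLmna against shControl for Xpot, Cse1l, Ran and Xpo5 under the reported fit (top) and 11 alternatives, 1 per line. Filled points have an adjusted p under 0.05; the Xpot panel has a wider axis than the others, and its one distant point (-0.59) is from the batch-corrected values.

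Binding partners of Ran and related genes were examined next, and 7 of them are reported. Of these, 3 were tested with edgeR, and neither direction held a call at an adjusted p under 0.05 (0 genes, also 0 with DESeq2 and 0 at an unadjusted p under 0.05). Ranbp1, whose protein binds the GTP-bound form of Ran and assists RanGAP1, stood at 641 and 708 CPM in shControl and at 812 and 730 CPM in shLmna. Its log2 fold change was 0.19 (SE 0.120, edgeR adjusted p 0.324), and its groups did not overlap. On the same log2 scale the difference was 0.35 for Nutf2, which encodes the import factor of Ran (edgeR adjusted p 0.423), and -0.13 for Ranbp3, which encodes a co-factor of exportin-1 (edgeR adjusted p 0.594). The groups overlapped for both. Ranbp2, Ranbp3l, Ranbp17 and Rangrf were below the filter. Ranbp2 had 3 and 21 counts in the shControl libraries, against 0 and 4 in those of shLmna.

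Of 11 adaptors and co-factors of export, 9 were tested with edgeR and 0 had an adjusted p under 0.05 in either direction. At an unadjusted p under 0.05 there was 1, Nup88 (log2 fold change 0.33, adjusted p 0.125), and DESeq2 also gave 0 at an adjusted p under 0.05. Log2 fold changes in this list ran from -0.29 for Nxf1, the mRNA export receptor, to 0.33 for Nup88, with a median of -0.03. Nup214 and Nxt2 were below the filter, with 1 count of Nup214 in each shControl library and 0 in shLmna.

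For comparison, 13 of 17 import receptor genes were tested, of which 2 were lower and 1 higher with an edgeR adjusted p under 0.05. By the same rule 9.74% of all tested genes were lower and 5.48% higher. The median log2 fold change of the 13 was -0.01. Kpna4, an importin alpha, fell (-3.66), while Kpnb1, importin beta, fell by 0.49 on the log2 scale (edgeR adjusted p 0.0420), and Tnpo2, a transportin, rose (0.44, edgeR adjusted p 0.0459). The calls of Kpnb1 and Tnpo2 were lost under 5 of 11 alternatives each, with an adjusted p of up to 0.263. Whether exporters and importers differ was not tested.

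**Figure D4:**
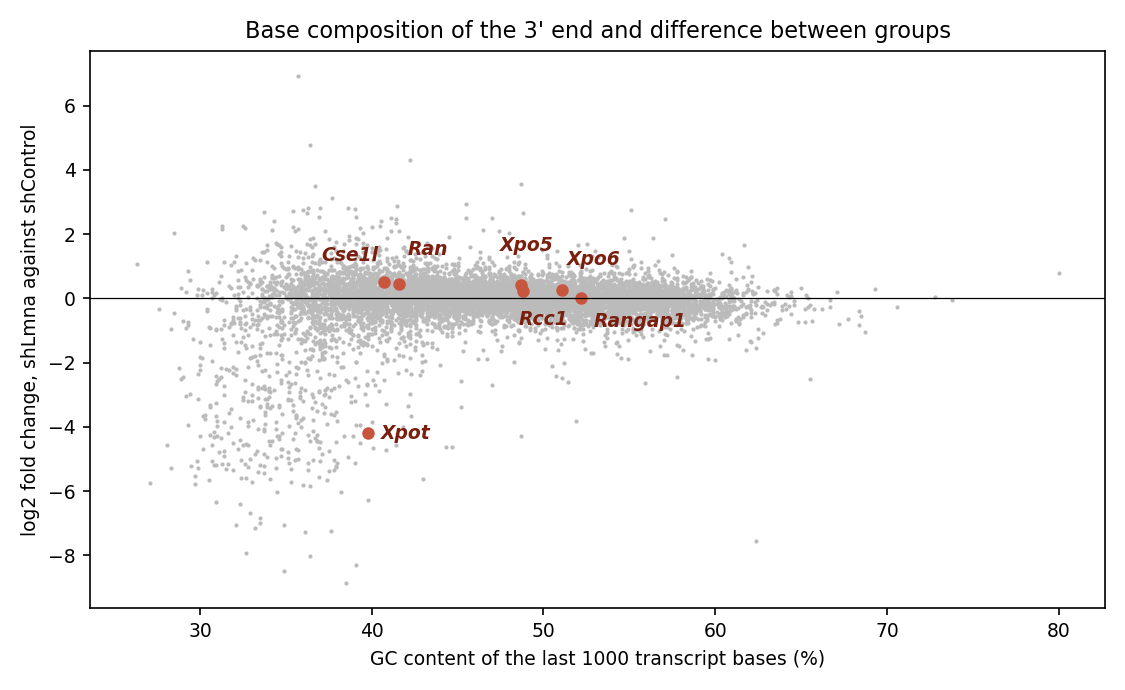
GC content of the last 1000 transcript bases (horizontal axis, %) against log2 fold change of shLmna against shControl (vertical axis) for the tested genes with a GC value, in gray, with the 7 tested members in red. Large negative values gather at low GC content, and Xpot (39.8% GC, -4.19) lies at the upper edge of that range.

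Base composition of the counted window differed among the members. It was lowest in Xpo4 (37.7%), Xpo1 (38.5%) and Xpot (39.8%), at 40.7% in Cse1l and 41.6% in Ran, at 45.3% in Xpo7, and highest in Rcc1 (48.8%), Xpo6 (51.1%) and Rangap1 (52.2%), with 48.7% in Xpo5. The median of all tested genes was 46.9%. Xpo4 and Xpo1, which had the lowest GC content, were also among the 3 members below the filter. The part of base composition in the low counts of these genes was not tested.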

How the data were processed

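Bulk MARS-seq libraries of B16F10 cells, 2 of shControl and 2 of shLmna, were grouped by their titles. According to the study's methods, the authors trimmed reads with Cutadapt, aligned them to mm10 with STAR 2.4.2a, counted them with HTSeq over the last 1000 bases of RefSeq genes and 100 bases downstream, and marked duplicates of molecular identifiers. The authors deposited raw counts per gene symbol, a normalized signal (counts divided by 1 DESeq2 size factor per library) with p-values of their own comparison, which were not used, and normalized log2 values corrected with ComBat for batches that are not named.

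Raw counts entered the two-sided quasi-likelihood F test of edgeR 4.0.16 (R 4.3.3), with TMM scaling, filterByExpr and group as the only term, adjusted by Benjamini and Hochberg over 9150 genes. SE and 95% intervals were derived from the F statistic. The study's 3 limits (adjusted p under 0.05, log2 fold change over 1 in size, mean normalized count over 5) were also applied. DESeq2 1.42.0 and limma 3.58.1 served as alternatives. The procedure was also run on simulated counts with the same spread for all genes and with smaller changes than that of Xpot. It therefore does not show how the test behaves for a fall as large as that of Xpot. Totals were 2494880 to 3808843 counts, and floors and intervals from counts cover counting error only. Replicates differed by more than sampling noise (chi-square per degree of freedom 6.96 in shControl and 3.91 in shLmna).

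Members and lists were chosen with earlier results of these data known. Named are Lmna, all members, listed genes with an adjusted p under 0.05, and the 5 genes closest to the member with the smallest p. Of the list of Ran partners, 2 genes are not reported here, and its counts leave them out. Ranbp1, Nutf2, Ranbp3, Nup88, Nxf1 and genes below the filter were named after their values were seen. Coordinates and transcript sequences are from GENCODE M21 (GRCm38, the assembly called mm10), using the longest RefSeq-linked transcript, and promoters from RefSeq (GRCm38.p6). A GC value was found for 95.9% of tested genes and for all members.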

Additional observations from a re-analysis of the deposited data

How the results depend on the processing

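Each of the 11 alternatives left Xpot lower with an adjusted p under 0.05, so 1 member was lower throughout. The count of higher members, 1, became 2 with no filter on low counts, 2 with the replicate block and 4 with the batch-corrected log2 values, and ran from 0 to 1 when 1 library was left out; it was 0 without shLmna 1 and without shLmna 2. No alternative turned the sign of a member's log2 fold change other than that of Rangap1, which was -0.00288 with the replicate block, -0.0284 without shControl 1 and -0.13 without shLmna 1, reached 0.14 without shLmna 2, and never passed. Over all tested genes, 891 were lower and 501 higher with an adjusted p under 0.05. DESeq2 gave 589 and 217, the batch-corrected values 1988 and 1793, the replicate block 852 higher, and leaving out 1 library 414 to 1329 lower and 89 to 775 higher. By the study's 3 limits 538 were lower and 161 higher, against 66 higher with DESeq2 and 28 and 2 with the batch-corrected values, and leaving out 1 library gave 60 to 232 higher. Among the fits that left out 1 library, the lowest of these counts came without shLmna 2. Of the reported Ran partners, where both counts were 0, 1 was lower with no filter and 1 with the batch-corrected values, and leaving out 1 library gave 0 to 1 lower. Of the export adaptors and co-factors, where both counts were 0, 1 was lower with no filter and 2 were higher with the batch-corrected values, and leaving out 1 library gave 0 to 2 lower and 0 to 1 higher. Of the import receptors, 2 were lower and 1 higher. The lower count was 1 with DESeq2, 4 with no filter, 1 with limma on log2(normalized count + 1) and 1 to 5 when 1 library was left out. The higher count was 0 with DESeq2, 3 with the batch-corrected values, 0 with the GC correction and 0 to 1 when 1 library was left out. The cause of these shifts was not tested. The alternatives also differed in the number of genes tested, from 8778 with the GC correction to 13616 with no filter on low counts. The labels state no pairing of same-numbered libraries. Deviations from the group means of same-numbered libraries had a correlation of 0.0129 across 9150 genes. Whether such libraries share an effect of handling was not tested. With the replicate block 1220 of all tested genes were lower, and Ran passed (edgeR adjusted p 0.0266). The fit on log2(normalized count + 1) was added after seeing the data, and it took the place of a planned fit on counts recovered from the normalized signal, which was not run. With no filter on low counts, Xpo1, Xpo4 and Xpo7 did not pass (edgeR adjusted p 0.226, 0.892 and 0.354), and these values rest on 0 to 12 counts per library.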
